A study of Schizosaccharomyces pombe with 4 samples.

Results

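The genes described here are the 166 nuclear transfer RNA (tRNA) genes of the fission yeast Schizosaccharomyces pombe, out of 6808 features measured. They are the features on chromosomes 1, 2 and 3 whose identifier begins with SPATRNA, SPBTRNA or SPCTRNA, and no measured level entered the choice. RNA was compared between an eif3e deletion strain (h- int6::kanMX6 ura4-D18 leu1-32) and a wild-type strain (h- ura4-D18 leu1-32), with 2 libraries of each. The deletion removes int6, which encodes the e subunit of translation initiation factor eIF3, and both strains carry the ura4-D18 and leu1-32 marker alleles. Cells were grown in rich YES medium, and total RNA was depleted of ribosomal RNA, cut with RNase III and sequenced on a SOLiD 4 instrument. Nothing in the labels says that libraries of one strain came from separate cultures, so p-values measure the spread between these libraries, which may be technical.

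A tRNA carries 1 amino acid to the ribosome and reads the codon in the messenger RNA through its anticodon, a base triplet in the middle of the molecule. In eukaryotes tRNA genes are transcribed by RNA polymerase III from promoter elements inside the gene, and transcription ends at a run of T. The primary transcript is trimmed at both ends, spliced where it holds an intron next to the anticodon, modified at many bases and charged by an aminoacyl-tRNA synthetase. tRNA is short and heavily modified, and in fission yeast clusters of tRNA genes flank the centromeres.

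All 166 features had the position and strand of a tRNA gene in RefSeq (build ASM294v3). They covered 20 amino acids, 44 anticodons and 60 distinct spliced sequences, of 71 to 84 bases. In 31 sets, 2 or more genes had the same spliced sequence, and these sets held 137 of the 166 genes, with up to 9 in a set. The other 29 genes each had a sequence of their own. A total of 86 genes lay on the plus strand and 80 on the minus strand. In 13 identifiers (9 of isoleucine and 4 of histidine genes) the letter I had been replaced by chr1, which was put back. The 4 genes SPCTRNAASP.05 to SPCTRNAASP.08 carry the product name tRNA-Asn in RefSeq although their sequence equals that of the other tRNA-Asp genes, and they are counted here under Asp.

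Sequences of 9 tRNA groups are shown 5′ to 3′ without intron, with the anticodon in capitals. The first 6 belong to the 5 amino acids with the highest levels and the last 3 to amino acids whose summed level was lower in both deletion libraries than in both wild-type libraries. Each is the RefSeq sequence of the gene named, and the number of genes with that exact sequence follows in brackets.
Glu-TTC, SPATRNAGLU.01, chr1:718119-718190, minus strand (4 genes): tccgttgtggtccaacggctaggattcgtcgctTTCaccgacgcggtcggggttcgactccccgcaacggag
Glu-CTC, SPATRNAGLU.03, chr1:3765434-3765505, minus strand (6 genes): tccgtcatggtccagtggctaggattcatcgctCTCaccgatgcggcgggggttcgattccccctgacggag
Gly-GCC, SPATRNAGLY.01, chr1:1646292-1646362, minus strand (8 genes): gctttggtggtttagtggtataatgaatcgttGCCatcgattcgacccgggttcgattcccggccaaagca
Gln-CTG, SPBTRNAGLN.01, chr2:257454-257525, plus strand (2 genes): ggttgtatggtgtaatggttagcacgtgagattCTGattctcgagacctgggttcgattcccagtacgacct
Asp-GTC, SPATRNAASP.01, chr1:4532857-4532927, plus strand (7 genes): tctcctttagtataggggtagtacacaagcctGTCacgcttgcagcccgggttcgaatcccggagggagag
Val-TAC, SPATRNAVAL.02, chr1:703075-703147, minus strand (2 genes): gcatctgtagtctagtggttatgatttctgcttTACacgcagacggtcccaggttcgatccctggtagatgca
Thr-AGT, SPATRNATHR.01, chr1:1603305-1603376, minus strand (6 genes): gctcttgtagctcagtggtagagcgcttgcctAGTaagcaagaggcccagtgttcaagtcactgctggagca
Phe-GAA, SPATRNAPHE.01, chr1:3701556-3701628, plus strand (4 genes): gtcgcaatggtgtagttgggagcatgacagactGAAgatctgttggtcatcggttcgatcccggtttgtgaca
Ala-AGC, SPATRNAALA.01, chr1:934665-934738, minus strand (9 genes): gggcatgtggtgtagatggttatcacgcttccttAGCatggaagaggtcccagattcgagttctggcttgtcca

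The Glu-TTC and Glu-CTC sequences differed at 13 of 72 bases. Gln-CTG and the more abundant of the 2 Gln-TTG sequences differed at 1 base, C34T, counted from the 5′ end of the Gln-CTG sequence, which is the first anticodon base. Reads of such near-identical genes can only be told apart where they cover the differing base.

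The 4 libraries held between 9926548 and 28254322 reads over all features, of which 47.6% to 64.1% lay in nuclear ribosomal RNA genes. Nuclear tRNA genes took 905123 and 637948 reads in the deletion libraries and 758122 and 640634 reads in the wild-type libraries. At least 10 reads were counted for 126 and 132 of the 166 genes in the deletion libraries and for 136 and 132 in the wild-type libraries. No read was counted for 19 and 13 genes in the deletion libraries, and for 11 and 2 in the wild-type libraries. The deleted gene, int6 (SPBC646.09c, chromosome 2), had 1 and 10 reads in the deletion libraries, against 504 and 194 reads in the wild-type libraries, which follows the labels (log2 -6.23, SE 0.93). It too missed the threshold of 0.05 (edgeR quasi-likelihood test, adjusted p = 0.111).

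Glutamate tRNA dominated the nuclear tRNA reads in both strains. Reads were divided by the deposited transcript length of each gene, which for 19 of the 40 genes with an intron includes the intron. They were then expressed as a share of the sum over all nuclear tRNA genes, which allows levels to be compared between genes. On this scale the 10 glutamate genes held 69.5% and 62.4% in the deletion libraries and 62.3% and 63.2% in the wild-type libraries. Glycine, with 12 genes, followed with 12.8% and 15.3% in the deletion libraries and 16.1% and 16.1% in the wild-type libraries. The 5 highest amino acids (Glu, Gly, Gln, Asp and Val, 47 genes) held 95.8% and 94.8% of the per-length level in the deletion libraries, against 92.7% and 94.1% in the wild-type libraries. The other 15 amino acids, with 119 genes, shared the rest.

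Glutamine, aspartate and valine came next. Glutamine held 7.43% and 7.55% of the per-length level in the deletion libraries, against 6.62% and 6.35% in the wild-type libraries. Aspartate held 3.65% and 5.40% in the deletion libraries, against 4.71% and 4.65% in the wild-type libraries. Valine held 2.42% and 4.15% in the deletion libraries, against 2.95% and 3.79% in the wild-type libraries. Of these, glutamine had strain values that lay apart, while the aspartate and valine ranges overlapped. Histidine (6th) and arginine (7th) lay near 1%, with overlapping ranges of 1.06% to 1.61% and 0.880% to 1.22% over the 4 libraries, so that their order did not exceed the spread. From serine (8th) downward every amino acid stayed below 1% in each library. Tryptophan was lowest on average, with 0.0303% and 0.0190% in the deletion libraries and 0.0220% and 0.0287% in the wild-type libraries. Cysteine was next to lowest, with 0.00622% and 0.0598% in the deletion libraries and 0.0650% and 0.0564% in the wild-type libraries.

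**Figure D1:**
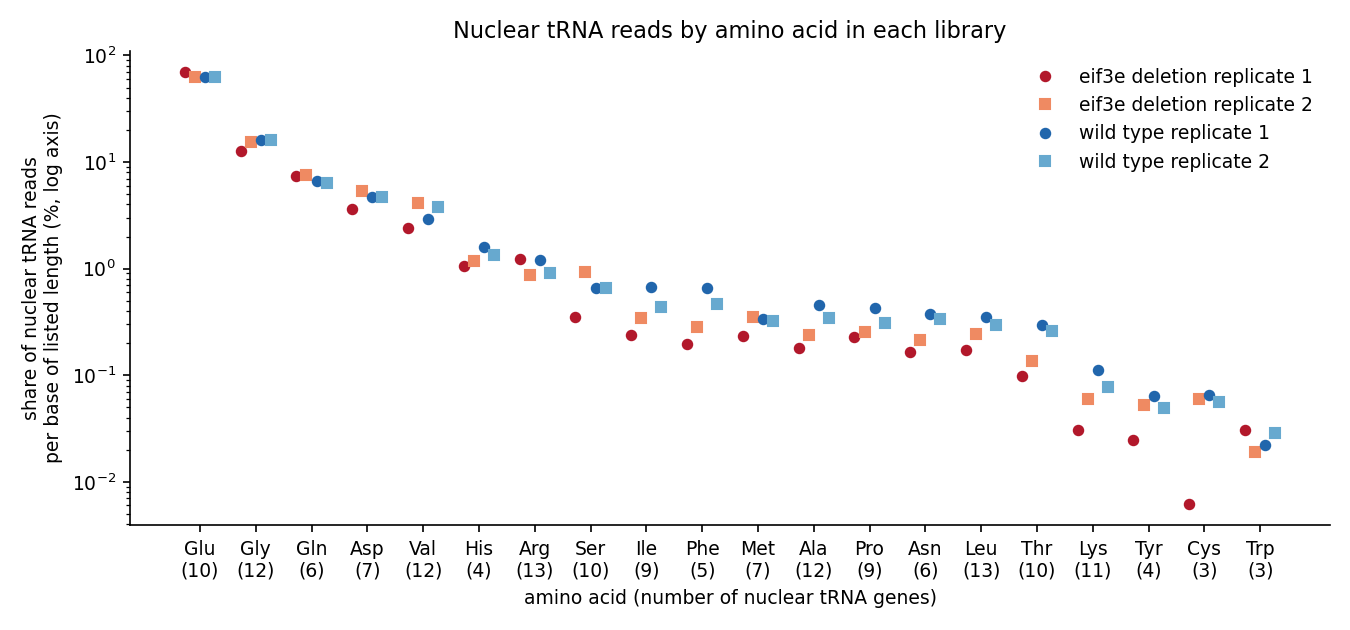
Share of the summed per-length nuclear tRNA level held by each amino acid, in percent on a log axis, in each of the 4 libraries (points, eif3e deletion and wild type). Glutamate lies above 62% in all 4 libraries, and tryptophan, cysteine, tyrosine and lysine lie at the low end.

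A small number of sequences carried these levels. The 4 Glu-TTC genes alone took 46.1% and 36.3% of nuclear tRNA reads in the deletion libraries and 41.6% and 36.7% in the wild-type libraries. The 6 Glu-CTC genes took 23.3% and 26.0% in the deletion libraries and 20.5% and 26.4% in the wild-type libraries. Among the genes with a sequence of their own, the highest was SPBTRNAGLY.04 (Gly-TCC, chr2:285389-285459, minus strand), with 42482 and 28032 reads in the deletion libraries and 47773 and 29402 in the wild-type libraries. The other Gly-TCC genes differ from it at 3 and 4 of 71 bases. SPBTRNAGLY.05 had 6920 and 6739 reads in the deletion libraries and 11837 and 7192 in the wild-type libraries. SPCTRNAGLY.12 had 3897 and 4498 reads in the deletion libraries and 5646 and 5738 in the wild-type libraries. SPBTRNAGLY.04 was thus above both in every library.

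Arginine, with 5 anticodons, was spread unevenly over its genes. The single gene SPBTRNAARG.04 (Arg-TCT) had 7469 and 2770 reads in the deletion libraries and 5277 and 3207 in the wild-type libraries. The 8 identical Arg-ACG genes together had 959 and 1051 reads in the deletion libraries and 2270 and 1151 in the wild-type libraries. Among the valine genes, the 2 Val-TAC genes held 19308 and 24290 reads in the deletion libraries and 19912 and 22259 in the wild-type libraries, and the 9 Val-AAC genes 1008 and 818 reads in the deletion libraries and 1833 and 1039 in the wild-type libraries. Within arginine and valine, the number of genes therefore did not order the reads of these anticodons. Most Val-AAC genes are listed at spliced length, as described further on, and had at most 0.667 reads each.

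Over the 20 amino acids, the number of nuclear tRNA genes was compared with codon use, taken as the share of codons for each amino acid in 5055 coding sequences weighted by wild-type RPKM. Spearman's rho was 0.84 and Pearson's r 0.86. Between gene number and mean per-length share, rho was 0.32 and r 0.17. Between per-length share and codon use, rho was 0.30 and r 0.22. The 20 points share the same 4 libraries and are given as a description. The shares include the genes listed at spliced length, described further on, most of which had few reads.

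The question put to the strains was whether tRNA differs without eIF3e. Nuclear tRNA took a smaller part of all reads in both deletion libraries, and this order was lost once ribosomal RNA reads were set aside. It accounted for 3.20% and 3.82% of the reads of all features in the deletion libraries, against 4.34% and 6.45% in the wild-type libraries (exact permutation test, two-sided, p = 0.333, the smallest p that 2 against 2 libraries can give). Outside nuclear ribosomal RNA the share was 6.66% and 10.7% in the deletion libraries and 8.28% and 14.9% in the wild-type libraries. The means were 8.65% ± 2.82 in the deletion strain and 11.6% ± 4.65 in wild type (SD, n = 2 each), a log2 ratio of -0.42 (exact permutation test, two-sided, p = 0.667). The groups overlapped, and the ratio was 0.064 without wild-type replicate 2. In bulk RNA, fewer cells with a transcript and less of it per cell cannot be told apart.

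Other RNA classes differed by amounts both smaller than and near that of tRNA. Mitochondrial tRNA, from 25 genes, took 2.36% and 2.78% in the deletion libraries and 2.55% and 3.02% in the wild-type libraries, which overlapped. Small nucleolar RNA, from 59 genes, took 19.1% and 19.0% in the deletion libraries and 22.0% and 21.6% in the wild-type libraries, a log2 ratio of -0.20, and did not overlap. Small nuclear RNA, from 6 genes, took 2.56% and 2.93% in the deletion libraries and 3.86% and 3.36% in the wild-type libraries, a log2 ratio of -0.40 without overlap. Features of the mitochondrial genome, 38 in all, took 26.9% and 23.0% in the deletion libraries and 19.9% and 18.8% in the wild-type libraries, a log2 ratio of 0.37 without overlap.

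Summed by amino acid, all 20 groups of tRNA were lower in the deletion strain by edgeR's estimate, and none passed the test. Reads were summed over the genes of an amino acid, scaled to library size as CPM with edgeR's TMM factors, and tested with its quasi-likelihood test over the whole table with Benjamini-Hochberg adjustment and a threshold of 0.05. Log2 changes, deletion over wild type, ran from -1.60 for threonine to -0.23 for glutamine, with a median of -0.78, against a median of 0.0014 over all 5800 entries tested. No amino acid was called in either direction, where 0.172% of all entries were called in either direction and 0.0517% lower. All 20 estimates were below 0, against 49.9% of all entries. At an unadjusted p under 0.05, 5 amino acids were lower (Thr, Phe, Ala, Asn and Ile) and 0 higher, against 5.76% of all entries lower. DESeq2 called 2 amino acids lower.

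The largest differences were in threonine and phenylalanine tRNA. Threonine tRNA had 25.3 and 73.0 CPM in the deletion libraries and 97.7 and 199 CPM in the wild-type libraries (log2 -1.60, SE 0.52, edgeR adjusted p = 0.313). Phenylalanine tRNA had 50.7 and 155 CPM in the deletion libraries and 219 and 360 CPM in the wild-type libraries (log2 -1.49, SE 0.51, edgeR adjusted p = 0.335). In both, every deletion library lay below every wild-type library.

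The same order of libraries held for 5 further amino acids. Asparagine tRNA had 43.2 and 119 CPM in the deletion libraries and 125 and 261 CPM in the wild-type libraries (log2 -1.26). Lysine tRNA had 8.12 and 34.4 CPM in the deletion libraries and 38.4 and 61.8 CPM in the wild-type libraries (log2 -1.25). Alanine tRNA had 48.9 and 134 CPM in the deletion libraries and 156 and 278 CPM in the wild-type libraries (log2 -1.25). In each of these the higher deletion library lay close below the lower wild-type library. Isoleucine tRNA had 75.6 and 220 CPM in the deletion libraries and 256 and 385 CPM in the wild-type libraries (log2 -1.12). Proline tRNA had 66.1 and 152 CPM in the deletion libraries and 161 and 255 CPM in the wild-type libraries (log2 -0.93). In all, 7 of 20 amino acids were lower in both deletion libraries and 0 higher in both, where 21.7% of all entries were lower in both and 20.3% higher in both.

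The most abundant tRNAs had estimates nearer 0 than most others, with serine (log2 -0.28) among the nearest as well. Glutamate tRNA had 17787 and 33451 CPM in the deletion libraries and 20366 and 48024 CPM in the wild-type libraries (log2 -0.42, SE 0.74). Glutamine tRNA had 1902 and 4051 CPM in the deletion libraries and 2165 and 4824 CPM in the wild-type libraries (log2 -0.23, SE 0.58). Neither separated the strains. Over the 5 highest amino acids the log2 change ran from -0.61 to -0.23 with a median of -0.42, and 0 of 5 were lower in both deletion libraries. Over the other 15 it ran from -1.60 to -0.28 with a median of -0.96, and 7 were lower in both.

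**Figure D2:**
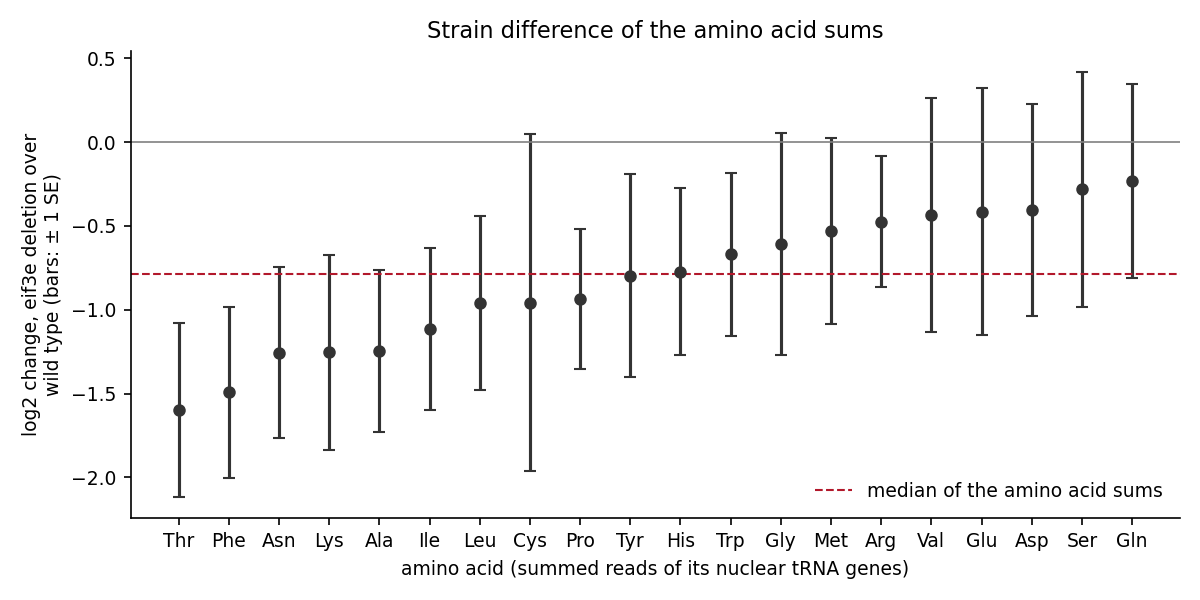
Log2 change of summed reads, eif3e deletion over wild type, with SE from edgeR, for each of the 20 amino acids; the dashed line marks their median of -0.78. All 20 estimates lie below 0, from -1.60 for threonine to -0.23 for glutamine.

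Replicate libraries of one strain stood far apart on this scale. The log2 CPM of an amino acid was higher in deletion replicate 2 than in deletion replicate 1 by a median of 1.52 over the 20 amino acids. It was higher in wild-type replicate 2 than in wild-type replicate 1 by a median of 1.01. Between the deletion replicates cysteine differed most, by 3.97, and between the wild-type replicates valine did, by 1.57. The part of this spread in the strain difference was not tested. Without deletion replicate 2, edgeR called 12 amino acids lower; without deletion replicate 1 it called 0. Without wild-type replicate 2 the estimate was above 0 for 8 amino acids, Glu and Gln among them.

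**Figure D3:**
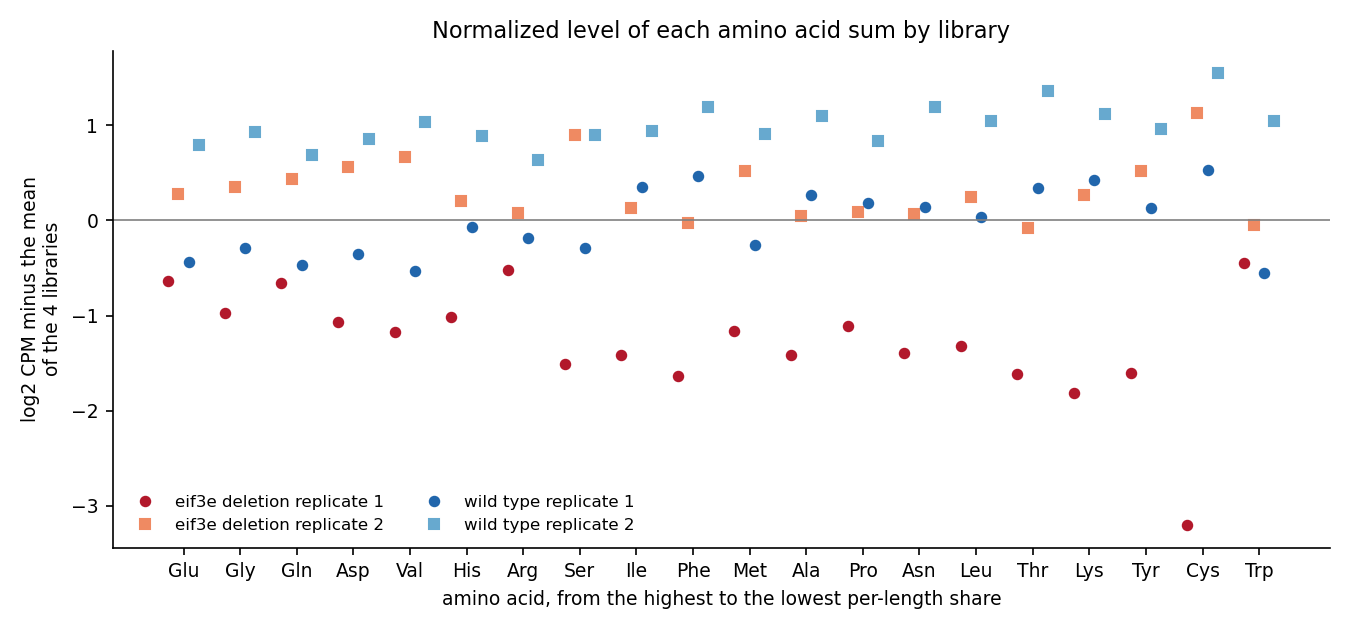
Log2 CPM of each amino acid's summed nuclear tRNA reads minus its mean over the 4 libraries, one point per library (eif3e deletion and wild type). Replicate 2 of a strain lies above replicate 1 for every amino acid, by a median of 1.52 in the deletion strain and 1.01 in wild type.

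The make-up of the tRNA pool does not depend on scaling between libraries. As a share of nuclear tRNA reads, 11 of 20 amino acids (55.0%) had deletion and wild-type libraries that did not overlap. Of these, 10 were lower in the deletion strain (Ala, Asn, Gly, His, Ile, Leu, Lys, Phe, Pro and Thr). Glutamine was the 1 that was higher, with 7.42% and 7.54% in the deletion libraries and 6.61% and 6.34% in the wild-type libraries. Threonine had 0.0988% and 0.136% in the deletion libraries and 0.298% and 0.261% in the wild-type libraries. Phenylalanine had 0.198% and 0.289% in the deletion libraries and 0.667% and 0.473% in the wild-type libraries. For these 11, the exact permutation test gave p = 0.333, the smallest possible, and 0.606 after Benjamini-Hochberg adjustment over the 20 amino acids. The count of 11 has no matching value over all features. By CPM, another measure, 21.7% of all entries were lower in both deletion libraries and 20.3% higher in both. Shares of one pool are not independent, since a higher share for one amino acid lowers the others. With deletion replicate 1 or 2 left out, 17 or 20 amino acids did not overlap, a count that fewer libraries raise by construction.

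Split by anticodon, 42 of the 43 tested had a log2 change below 0 (50.0% of all entries), with a median of -0.79, and 12 were lower in both deletion libraries (21.7% of all entries) and 0 higher (20.2%). EdgeR called 0 of them, where 0.103% of all entries were called in either direction and 0.0343% lower. At an unadjusted p under 0.05, 11 were lower and 0 higher, against 5.75% of all entries lower. Thr-AGT was lowest, with 9.92 and 42.8 CPM in the deletion libraries and 60.1 and 127 CPM in the wild-type libraries (log2 -1.84, SE 0.64). Ile-AAT had 25.3 and 91.1 CPM in the deletion libraries and 138 and 210 CPM in the wild-type libraries (log2 -1.59, SE 0.55). At the other end lay Arg-CCT, whose single gene SPBTRNAARG.05 had 369 and 562 reads in the deletion libraries and 177 and 421 in the wild-type libraries (log2 0.01, SE 0.87). Val-CAC, from SPATRNAVAL.01, had 1971 and 1790 reads in the deletion libraries and 1058 and 1376 in the wild-type libraries, and its log2 change was -0.01 (SE 0.62).

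Anticodons of one amino acid spanned a wide range of changes. Within arginine the log2 change lay between -1.63 for Arg-TCG and 0.01 for Arg-CCT. Within glycine it lay between -0.70 for Gly-TCC and -0.49 for Gly-CCC, and the 2 glutamate anticodons had -0.43 (Glu-CTC) and -0.41 (Glu-TTC). The SE of the arginine values was 0.35 to 0.89. Differences between anticodons of one amino acid were not tested.

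Among single genes, 135 of 166 passed edgeR's filter on low counts, and edgeR and DESeq2 each called 0 (edgeR called 0.0169% of all 5915 features, and 0% lower). Of the 135, 128 had a log2 change below 0, where 49.9% of all features did. At an unadjusted p under 0.05, 26 were lower and 0 higher, against 5.31% of all features lower. Both deletion libraries lay below both wild-type libraries for 45 genes (21.4% of all features), and above them for 0. The median log2 change was -0.90, in a range of -2.33 to 1.19, against 0.0011 over all features. Without deletion replicate 2, edgeR called 70 genes lower and the median was -1.98, and without deletion replicate 1 it called 0 and the median was -0.32. It was -1.32 without wild-type replicate 1 and -0.34 without wild-type replicate 2. Identical copies share reads, so the 135 genes are not independent. Summed by sequence, 57 of 59 had a change below 0 (50.0% of all entries), 19 were lower in both deletion libraries (21.6% of all entries) and 0 higher (20.1%), and the median was -0.91. EdgeR called 0 of the 59, where 0.103% of all entries were called in either direction and 0.0343% lower, and 17 were lower at an unadjusted p under 0.05 (5.69% of all entries). Of the 29 sequences held by 1 gene only, 27 had a change below 0, 8 were lower in both deletion libraries and the median was -0.84.

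Among genes whose deletion libraries both lay below the wild-type ones, the 6 smallest p belonged to threonine, phenylalanine, alanine and isoleucine genes. SPCTRNATHR.10 (Thr-TGT, chr3:1361090-1361161, minus strand), the only one of the 6 with a sequence of its own, had 360 and 226 reads in the deletion libraries and 633 and 421 in the wild-type libraries (log2 -1.40, SE 0.41, edgeR adjusted p = 0.337). SPATRNAPHE.01 (plus strand), whose sequence is given above, had 155 and 154 reads in the deletion libraries and 495 and 308 in the wild-type libraries (log2 -1.76, SE 0.53, edgeR adjusted p = 0.343). SPBTRNAILE.07 (Ile-AAT, chr2:1630049-1630122, minus strand) had 358 and 417 reads in the deletion libraries and 1185 and 784 in the wild-type libraries (log2 -1.68, SE 0.58, edgeR adjusted p = 0.403).

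In these 3 the wild-type reads exceeded the deletion reads although wild-type libraries were smaller in total at each replicate number. SPCTRNATHR.08 (Thr-AGT, chr3:1093083-1093154, minus strand) had 88.4 and 133 reads in the deletion libraries and 420 and 288 in the wild-type libraries (log2 -1.97, SE 0.67, edgeR adjusted p = 0.400). SPBTRNAALA.09 (Ala-AGC, chr2:1618440-1618513, minus strand) had 170 and 155 reads in the deletion libraries and 454 and 249 in the wild-type libraries (log2 -1.48, SE 0.48, edgeR adjusted p = 0.381). Its identical copy SPBTRNAALA.08 (chr2:1600233-1600306, minus strand) had 186 and 147 reads in the deletion libraries and 400 and 226 in the wild-type libraries (log2 -1.33, SE 0.45, edgeR adjusted p = 0.398). No gene was higher in both deletion libraries, so none is named on that side.

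The highest genes of the amino acids differed among themselves. SPBTRNAGLU.06 (Glu-TTC, chr2:1601491-1601562, minus strand) had 139200 and 76810 reads in the deletion libraries and 105830 and 77821 in the wild-type libraries, and SPBTRNAGLN.03 (Gln-CTG, chr2:258848-258919, minus strand) 41947 and 28854 reads in the deletion libraries and 33341 and 25143 in the wild-type libraries. Their log2 changes were -0.40 (SE 0.56) and -0.28 (SE 0.54), and neither gene separated the strains in CPM. SPCTRNAPHE.05 (Phe-GAA, chr3:1142192-1142264, minus strand) had 406 and 438 reads in the deletion libraries and 1195 and 713 in the wild-type libraries (log2 -1.50, SE 0.54). SPBTRNAASN.04 (Asn-GTT, chr2:4210053-4210126, minus strand), which has a sequence of its own, had 752 and 708 reads in the deletion libraries and 1596 and 1098 in the wild-type libraries (log2 -1.30, SE 0.52). Both lay lower in each deletion library than in each wild-type library in CPM. The highest genes of isoleucine (SPATRNAILE.02, log2 -0.70), leucine (SPATRNALEU.03, log2 -0.77), cysteine (SPATRNACYS.01, log2 -0.63) and methionine (SPBTRNAMET.05, log2 -0.29), also scarce tRNAs, had overlapping strains.

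Copies with the same sequence did not receive the same number of reads, and the strand on which a copy lies ordered them. In 21 sets of identical spliced sequence, with 98 genes (49 plus, 49 minus), copies lay on both strands. Genes listed as spliced, described further on, are left out. Among those, Leu-CAA, Val-AAC and Lys-CTT copies on opposite strands had equal reads within each library, at most 0.667 each. In all 21 sets and in all 4 libraries, every minus-strand copy had more reads than every plus-strand copy. Minus-strand copies held 99.0% and 98.4% of the reads of these sets in the deletion libraries, against 98.7% and 97.7% in the wild-type libraries. The ratio of mean reads, minus over plus, had a median of 26.9 and 38.5 in the deletion libraries and 29.5 and 42.6 in the wild-type libraries, within an overall range of 1.35 to 421.

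Glu-TTC shows the size of the gap. Its 3 minus-strand copies averaged 138860 and 76988 reads in the deletion libraries and 104980 and 78000 in the wild-type libraries. Its plus-strand copy had 921 and 591 reads in the deletion libraries and 769 and 956 in the wild-type libraries. The smallest gaps were in the Phe-GAA set, at ratios of 2.62 and 2.82 in the deletion libraries and 2.42 and 2.25 in the wild-type libraries, and in a Met-CAT set, at 3.19 and 1.35 in the deletion libraries and 1.78 and 2.00 in the wild-type libraries.

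**Figure D4:**
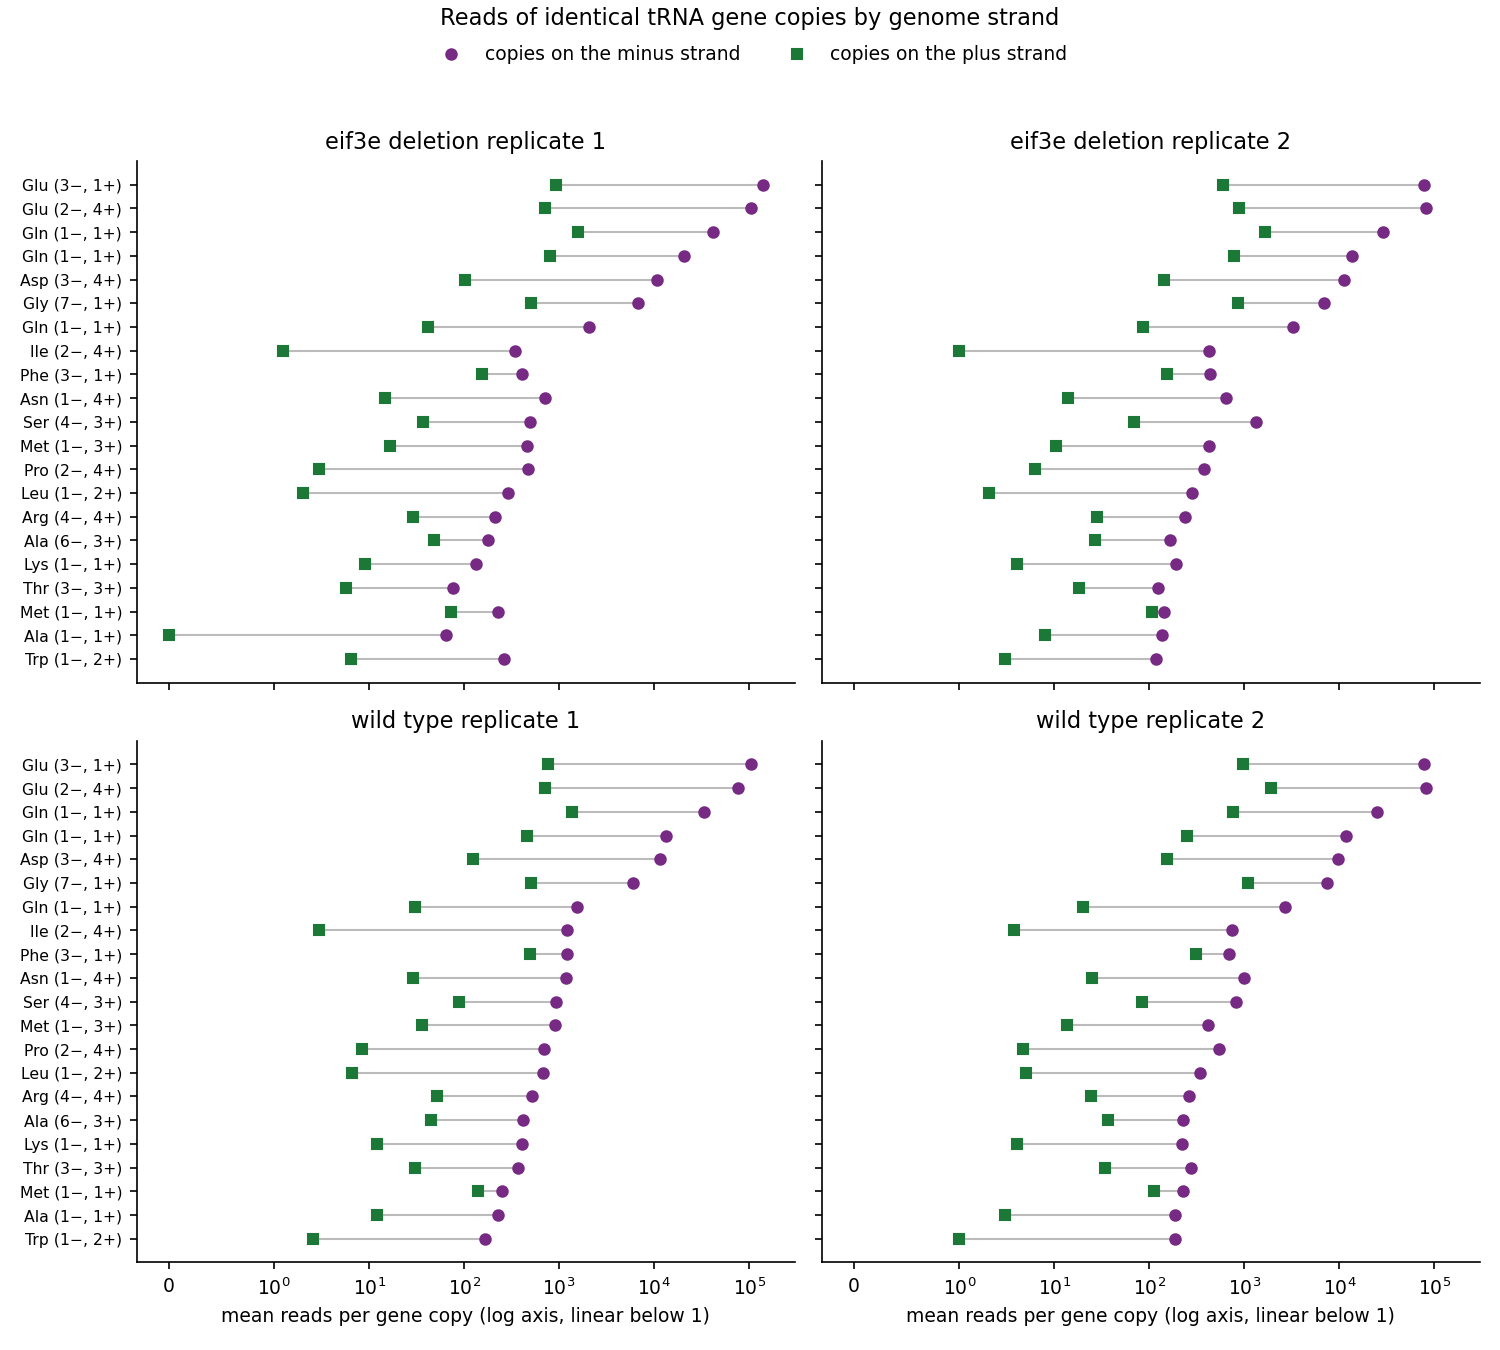
Mean reads per gene copy of minus-strand copies (circles) and plus-strand copies (squares) for 21 sets of identical tRNA sequence, with a panel per library. Each row is a set, its means joined by a line, on a log axis that is linear at its low end. In every set the minus-strand mean lies above the plus-strand mean, at ratios of 1.35 to 421.

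Copies on one strand were close to each other on the minus side and less so on the plus side. Among minus-strand copies of the same set, the highest exceeded the lowest by at most 1.33-fold in 11 sets (median 1.04 over sets and libraries). Among plus-strand copies it did so by up to 18.2-fold in 12 sets (median 1.60). Some sets have copies on the plus strand alone. The 4 identical His-GTG genes had between 1710 and 3537 reads each over the 4 libraries, within 1.30-fold of each other in each library, and the 2 genes of another Ile-AAT sequence between 91 and 382. Among genes with a sequence of their own, the 16 on the plus strand had a median of 401 and 448 reads in the deletion libraries and 666 and 641 in the wild-type libraries. The 11 on the minus strand had a median of 414 and 380 reads in the deletion libraries and 633 and 503 in the wild-type libraries, so the strand gap seen within sets was not present in these medians.

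For 10 pairs of copies on opposite strands the identity extended to 60 bases upstream and 40 bases downstream, 171 to 174 bases in all. One such pair is SPATRNAILE.04 (chr1:3773910-3773983, minus strand) and SPATRNAILE.03 (chr1:3768290-3768363, plus strand), both Ile-AAT. Their shared sequence is shown because the pair has one of the largest gaps, with the gene in capitals and its flanks in lower case.
SPATRNAILE.04 and SPATRNAILE.03: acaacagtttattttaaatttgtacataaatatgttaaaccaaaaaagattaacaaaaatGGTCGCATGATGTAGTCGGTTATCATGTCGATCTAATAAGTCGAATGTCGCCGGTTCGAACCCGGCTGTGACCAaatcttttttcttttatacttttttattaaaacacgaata

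The minus-strand copy SPATRNAILE.04 had 336 and 425 reads in the deletion libraries and 1259 and 709 in the wild-type libraries. The plus-strand copy SPATRNAILE.03 had 0 and 2.00 reads in the deletion libraries and 2.00 and 4.01 in the wild-type libraries. A read from inside either gene matches both, so the values of single copies in such sets are uncertain, and the sums by sequence, anticodon and amino acid are the safer measure. No source used here says how the deposited counting assigned reads with several matches, or whether it used strand.

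Ribosomal 5S RNA, another short polymerase III product with many near-identical genes, had the same order of medians. Its 10 plus-strand features had a median of 33885 and 28371 reads in the deletion libraries and 12691 and 14305 in the wild-type libraries. Its 5 minus-strand features had a median of 542590 and 420400 reads in the deletion libraries and 287280 and 221490 in the wild-type libraries. One minus-strand feature was an exception, with 1 and 0 reads in the deletion libraries and 0 and 4 in the wild-type libraries. Between strains, the median log2 change was -0.85 over the 65 plus-strand genes tested and -1.03 over the 70 on the minus strand.

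An intron of 7 to 30 bases interrupts 40 of the 166 genes. For 21 of them the deposited table lists the spliced length, and for 19 the length with the intron. Genes listed spliced had a median of 0 and 0 reads in the deletion libraries and 0.200 and 0.667 in the wild-type libraries. Genes listed unspliced had a median of 275 and 298 reads in the deletion libraries and 533 and 345 in the wild-type libraries. Under 2 reads were counted for 17 and 16 of the 21 spliced-listed genes in the deletion libraries, and for 16 and 16 in the wild-type libraries.

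**Figure D5:**
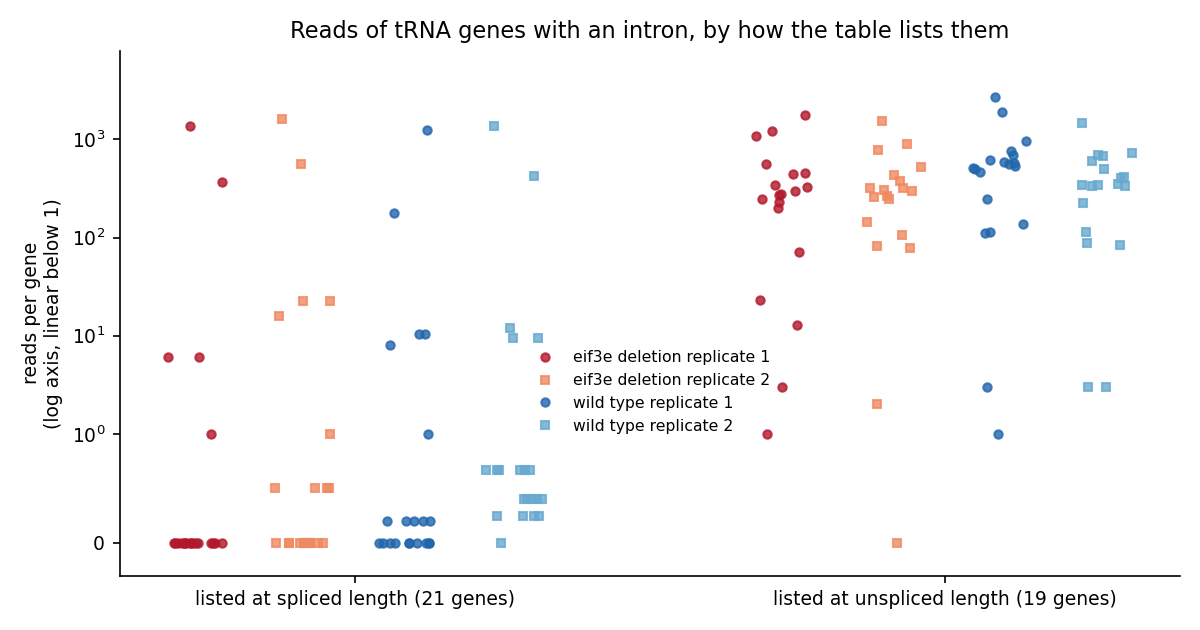
Reads per gene in each library for intron-holding tRNA genes listed spliced (21 genes) and unspliced (19 genes). Most spliced-listed genes lie at or near 0, while the unspliced-listed genes have medians of 275 and 298 reads in the deletion libraries and 533 and 345 in the wild-type libraries.

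The contrast held between genes with the same mature tRNA. The leucine genes SPATRNALEU.02 (chr1:2802761-2802858, minus strand, listed unspliced) and SPBTRNALEU.05 (chr2:1402444-1402541, minus strand, listed spliced) encode the same spliced Leu-TAA sequence. They are shown to set the introns, in capitals, side by side.
SPATRNALEU.02: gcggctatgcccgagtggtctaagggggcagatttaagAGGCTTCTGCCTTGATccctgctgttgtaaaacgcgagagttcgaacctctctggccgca
SPBTRNALEU.05: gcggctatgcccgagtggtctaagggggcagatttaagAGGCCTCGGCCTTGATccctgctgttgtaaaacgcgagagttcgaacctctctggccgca
SPATRNALEU.02 had 202 and 260 reads in the deletion libraries and 501 and 404 in the wild-type libraries. SPBTRNALEU.05 had 0 and 1 reads in the deletion libraries and 1 and 0 in the wild-type libraries.

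The Val-AAC and tyrosine sets had the same order. In the Lys-CTT set the gap was clear for SPATRNALYS.01 alone, and the Met-CAT set had the opposite order. The 3 unspliced-listed Val-AAC genes had between 249 and 690 reads each over the 4 libraries, and the 6 spliced-listed ones at most 0.667. All 4 Leu-CAA genes are listed spliced and had at most 0.5 reads each, and Leu-CAA is the 1 anticodon whose level was not tested. The tyrosine gene SPATRNATYR.01, listed unspliced, had 245 and 319 reads in the deletion libraries and 533 and 333 in the wild-type libraries. Its spliced-listed copies SPBTRNATYR.02 and SPBTRNATYR.03 had 6 and 22.5 reads each in the deletion libraries and 10.5 and 9.50 in the wild-type libraries. Of the Lys-CTT genes, unspliced-listed SPATRNALYS.01 had 13 and 82 reads in the deletion libraries and 112 and 84.9 in the wild-type libraries. Unspliced-listed SPATRNALYS.05 had 1 and 2 reads in the deletion libraries and 3.03 and 3.03 in the wild-type libraries, near the 0 to 0.4 reads of the 5 spliced-listed copies.

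A pair of spliced-listed genes were exceptions. SPBTRNAMET.05 (chr2:1598075-1598155, minus strand) had 1358 and 1620 reads in the deletion libraries and 1239 and 1358 in the wild-type libraries. Its unspliced-listed copies were lower: SPATRNAMET.02 had 230 and 143 reads in the deletion libraries and 248 and 226 in the wild-type libraries, and SPBTRNAMET.04 72 and 106 reads in the deletion libraries and 139 and 113 in the wild-type libraries. SPBTRNAARG.05 (chr2:1160893-1160994, minus strand), the Arg-CCT gene named above, had the reads given there. For both, the authors' junction RPKM equalled their RPKM in all 4 libraries (100%). The same held for the scarcer SPBTRNATYR.04, so this was not particular to the exceptions. A junction RPKM above 0 was given for all 21 spliced-listed genes and for 0 of the 19 unspliced-listed ones. The log2 change of SPBTRNAMET.05 was -0.29 (SE 0.67).

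By chromosome, the 56 genes on chromosome 1 held 32.1% and 32.9% of nuclear tRNA reads in the deletion libraries and 31.2% and 33.1% in the wild-type libraries. The 65 genes on chromosome 2 held 49.6% and 43.9% in the deletion libraries and 49.7% and 44.0% in the wild-type libraries. The 45 on chromosome 3 held 18.3% and 23.2% in the deletion libraries and 19.1% and 22.9% in the wild-type libraries. Replicates differed more than strains for chromosomes 2 and 3.

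tRNA genes were dense in one region of each chromosome. A 150 kb window with the most tRNA gene starts held 11 genes on chromosome 1, 26 on chromosome 2 and 22 on chromosome 3, 59 in all, leaving 107 outside. These windows were set by position alone. They took 58.3% and 56.6% of nuclear tRNA reads in the deletion libraries, against 54.4% and 56.8% in the wild-type libraries. The log2 ratio of reads inside over outside averaged 0.43 in the deletion strain and 0.32 in wild type, a difference of 0.11 that did not exceed the spread (exact permutation test, two-sided, p = 0.667). Because identical copies can share reads, the place of a read is uncertain.

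Within 60 bases upstream, 82 of 166 tRNA genes (49.4%) held a TATA motif (1 of TATAAA, or TATATA, or TTTATA) on the gene's strand, against 1988 of 12404 other nuclear RefSeq genes. Within 40 bases downstream, 160 (96.4%) held TTTTT on the same strand, the kind of T run at which polymerase III ends transcription, against 17.3% of the other genes. The motifs were searched as letters and may overlap. Genes with a TATA match had a median of 24.6 CPM in wild type and a median log2 change of -0.89. Those without had a median of 20.2 CPM in wild type and a median log2 change of -0.98.

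Most genes for RNA polymerase III itself had estimates slightly below 0 in the deletion strain, and none was called in edgeR's test over all features. Of 17 subunit genes, 14 had a log2 change below 0 and 9 were lower in both deletion libraries, where 21.4% of all features were, with a median of -0.34. The subunit gene rpc82 had 23.8 and 20.4 CPM in the deletion libraries and 34.5 and 36.8 CPM in the wild-type libraries (log2 -0.69, SE 0.24, edgeR adjusted p = 0.403). For rpc11, whose product acts in RNA cleavage and termination, the values were 40.8 and 44.6 CPM in the deletion libraries and 67.1 and 63.5 CPM in the wild-type libraries (log2 -0.61, SE 0.23). Of 9 factor genes tested, 5 were lower in both deletion libraries, among them sfc1, a subunit of the promoter-binding factor TFIIIC (log2 -1.30, SE 0.44), and tbp1, the TATA-binding protein (log2 -0.57, SE 0.23), with a median of -0.36.

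tRNA processing and export genes leaned neither way. One symbol of the list, pop1, names another protein in fission yeast and was left out after seeing the data. Of the 16 others tested, the median was -0.10, and 5 were lower and 4 higher in both deletion libraries (21.4% and 20.1% of all features). The 3′-end processing endonuclease gene trz2 had 1.05 and 3.11 CPM in the deletion libraries and 7.05 and 5.19 CPM in the wild-type libraries (log2 -1.64, SE 0.57), and the tRNA exporter gene los1 27.5 and 28.2 CPM in the deletion libraries and 61.6 and 30.4 CPM in the wild-type libraries (log2 -0.73, SE 0.35). Both pairs of groups were apart. The other 3′-end processing endonuclease gene, trz1, had overlapping groups (log2 -0.09, SE 0.32).

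Among tRNA modification genes, mod5, which names a Tea1-anchoring protein in fission yeast, was likewise left out. Of the 39 others, the median was -0.25, and 17 were lower and 4 higher in both deletion libraries (21.4% and 20.1% of all features). The Elongator subunit genes elp6 (log2 -2.46, SE 0.83) and elp2 (log2 -0.84, SE 0.29), and ctu1, needed for thiolation of the wobble uridine (log2 -0.63, SE 0.23), were on the lower side. The ribose methyltransferase gene trm7 had 3.91 and 4.12 CPM in the deletion libraries and 2.08 and 1.18 CPM in the wild-type libraries (log2 1.25, SE 0.49). None of these was called, at edgeR adjusted p of 0.398 or more.

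For the aminoacyl-tRNA synthetases, which charge tRNA, a literal search of RefSeq products found 5 genes, among them the splicing ligase trl1, with a median log2 change of 0.08. A widened search, chosen after seeing the data, found 36, whose median was 0.04. Of these, 11 were lower and 7 higher in both deletion libraries (21.4% and 20.1% of all features). The glutamine enzyme gene qrs1 had 80.8 and 87.7 CPM in the deletion libraries and 44.5 and 63.1 CPM in the wild-type libraries (log2 0.65, SE 0.27). The phenylalanine enzyme gene frs2 had 11.2 and 13.4 CPM in the deletion libraries and 15.3 and 24.6 CPM in the wild-type libraries (log2 -0.70, SE 0.32). The gene of its other subunit, frs1, was instead higher in both deletion libraries (log2 0.34, SE 0.25). The smallest p of the 36 belonged to the cysteine enzyme gene SPAC29E6.06c, which was lower in both deletion libraries (log2 -0.87, SE 0.29). None of the 36 was called.

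Transcripts listed here as other polymerase III products differed in direction, and which polymerase makes each was not checked. Of 17 tested, 14 were near-identical 5S ribosomal RNA features, which share reads and belong to the class that was depleted. Of the other 3, 2 had a log2 change below 0. The U6 small nuclear RNA gene snu6 had 616 and 972 CPM in the deletion libraries and 1004 and 1237 CPM in the wild-type libraries (log2 -0.50, SE 0.39). The RNase P RNA gene rrk1 had 2126 and 4446 CPM in the deletion libraries and 2728 and 4740 CPM in the wild-type libraries (log2 -0.18, SE 0.55), which overlapped. The signal recognition particle RNA gene srp7 had 13997 and 38794 CPM in the deletion libraries and 11132 and 26365 CPM in the wild-type libraries (log2 0.49, SE 0.77), and its groups overlapped. The 14 5S features had log2 changes of 0.19 to 0.60, 0 of them higher in both deletion libraries.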

How the data were processed

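RNA was extracted with RNA-Bee and RNeasy Mini columns, treated with DNase, depleted with RiboMinus, cleaned on beads and sequenced on SOLiD 4, per the labels' protocols. How well columns and beads keep RNA as short as tRNA was not measured. The deposited table gives, per the file headers, estimated counts of reads per feature (partly fractional), RPKM by the authors, junction RPKM, a transcript length (other), a chi-square score and a p-value by the authors, the last of which were not used here. The submitters' processing notes list Partek 6.0, SAMtools, TopHat 1.4.1 and Bowtie 1.1.0 with no role. No source used here gives the genome build, the annotation or the handling of strand and of reads with several matches. The table has 0 value columns without a sample.

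Features were matched to RefSeq ASM294v3 by identifier, and position and strand were then compared for the 166 tRNA features. The anticodon was the triplet for the labelled amino acid with the longest paired stem around it (at least 4 pairs, no ties). Deposited estimated counts were rounded, summed where stated, and tested with edgeR 4.0.16 in R 4.3.3 (TMM scaling, filterByExpr, glmQLFit and glmQLFTest, Benjamini-Hochberg over all entries, threshold 0.05). Shares were compared with an exact permutation test (scipy 1.17.1). Alternatives used DESeq2 1.42.0 and limma 3.58.1, other scalings, no filter, lists without mod5 and pop1 and with more synthetases (both added after seeing the data), a replicate block and each library left out. Per-length values divide reads by the deposited transcript length, which includes the intron for 19 of the 40 genes that have one.

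Single genes named are the highest of each amino acid by mean CPM, the 6 with the smallest p among those lower in both deletion libraries and likewise those higher, and up to 4 per list. Arg-CCT, Val-CAC, the Gly-TCC genes and the genes of the strand and intron comparisons were named after their values were seen. The members and lists were chosen with earlier results of these data known. Counts were simulated 5 times with 200 changed genes each, on 5820 to 5840 features. They were drawn with the same dispersion (0.111) for all features, and changed genes were picked above the median level. The edgeR test recovered 6.48% of 2-fold, 72.7% of 4-fold and 97.9% of 8-fold changes between the strains. Recovery for genes with a larger spread or a lower level was not simulated. Total reads per library ran from 9926548 to 28254322. With 2 libraries a strain, precision rests on the spread between them.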

Additional observations from a re-analysis of the deposited data

How the results depend on the processing

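No nuclear tRNA gene, amino acid sum or list member was called by edgeR with all 4 libraries and no replicate block. Other scalings, no filter and limma-voom gave 0 as well. DESeq2 called 2 amino acids and none of the others. Leaving out each library in turn gave 0 to 70 tRNA genes, 0 to 12 amino acids and 0 to 2 list members called. The highest of each (70, 12 and 2) came without deletion replicate 2. The median log2 change of tRNA genes was -0.90 and ran from -1.98 (without deletion replicate 2) to -0.32 (without deletion replicate 1), and by limma-voom was -1.15. The tRNA share outside ribosomal RNA had a log2 ratio from -0.80 to 0.064, positive without wild-type replicate 2. Amino acids whose shares did not overlap numbered 11 to 20, and the window difference was 0.04 to 0.18.

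With each library left out in turn, the log2 change ran from -1.44 to 0.31 for Asp, -4.32 to 0.015 for Cys, -0.88 to 0.46 for Gln, -0.94 to 0.33 for Glu, -1.42 to 0.12 for Gly, -1.59 to 0.16 for Met, -1.93 to 0.47 for Ser, -1.29 to 0.31 for Trp and -1.63 to 0.55 for Val. The values above 0 came without wild-type replicate 2 for 8 amino acids (all of these but Cys) and without deletion replicate 1 for 6 (Asp, Cys, Gln, Met, Ser and Val). The cause was not tested. With a replicate block, 34 tRNA genes and 8 amino acids were called lower, the median log2 change was -1.06, the share ratio -0.40, the window difference 0.11 and the non-overlapping shares 11. The labels do not say what a shared replicate number marks. Replicate differences of the strains correlated at 0.293 over 5915 features and 0.255 over 135 tRNA genes, so same-numbered libraries leaned the same way, but 2 pairs with an unexplained number do not establish a pairing. The common dispersion was 0.111 without and 0.0680 with the block.

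With 2 libraries a strain, leaving out 1 changed calls or signs as given. Reads shared among identical copies limit every value of a single gene. The simulated recovery of 2-fold changes was 6.48%, with the same dispersion for all features and changed genes above the median level. Under these settings changes of that size would mostly be missed.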
